A study of Mus musculus with 6 samples.

Results

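This account follows 5 mouse genes, Gdf15, Fgf21, Stc1, Stc2 and Vldlr, in cultured mdx myoblasts that received the Gpr18 agonist PSB-KD107 or its vehicle. The first 4 encode secreted factors that cells release under stress, and Vldlr encodes the very low density lipoprotein receptor of the cell surface. They were taken by gene symbol from a table of 47069 genes, all 5 passed the filter on low counts, and 14165 genes passed it in all. The members were chosen from the comparison of PSB-KD107 with vehicle itself, so their differences between the 2 groups are described here with standard errors and without a test.

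The cells were muscle stem cells of mdx mice, which lack dystrophin. Per the study's methods they were sorted from muscle as Itga7-positive, Itgb1-positive cells free of Sca-1, CD45, CD31 and CD11b, and per the labels they were kept in HAMF-10 medium with serum, FGF2 and antibiotics. The vehicle group (n = 3) and the PSB-KD107 group (n = 3, 10 µM) shared this genotype and medium. The treatment lasted 2 days per the labels and overnight per the methods, which give 3 mice as the source of the cells. No mouse is named for a library, so the spread between libraries may be partly technical. Libraries carry the numbers 1, 2 and 4 of the deposited table in each group.

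In the integrated stress response, kinases such as Perk and Gcn2 phosphorylate the translation factor eIF2. General protein synthesis then falls while translation of Atf4 rises, and Atf4, often with Chop (Ddit3) or C/EBP partners, switches on genes of amino acid supply and redox balance. Stressed muscle also signals outwards by this route: Gdf15 acts on appetite through the receptor Gfral in the hindbrain, and Fgf21 acts on metabolism through Fgf receptors that need the co-receptor beta-Klotho (Klb). Stc1 and Stc2, the stanniocalcins, inhibit the pappalysin proteases Pappa and Pappa2, which free insulin-like growth factors from their binding proteins. Vldlr takes up triglyceride-rich lipoproteins and also serves as a receptor for reelin.

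Total counts ran from 30917613 to 48756794 per library, so 3 counts correspond to between 0.0596 and 0.0962 CPM, where CPM is a gene's count relative to the library's total count after TMM normalisation. All levels below are CPM unless another scale is named. The 8 myoblast markers (Pax7, Myod1, Des and others) summed to between 5986 and 6532 CPM in every library. Des alone held between 2783 and 3929 CPM of this, so the sum says little about the others. The list's median log2 difference from the vehicle mean was -0.57, -0.06 and -0.49 in treated libraries 1, 2 and 4. Markers of other cells were low in all 6 libraries: the summed levels of 6 fibroblast, 6 leukocyte, 5 endothelial and 4 adipocyte genes reached at most 10.6, 6.57, 1.40 and 0.0286 CPM. Of these genes, Lum, Adgre1, Emcn, Plin1 and Retn had no count. Others were counted, such as Col1a1 (up to 109 counts), Itgam, which encodes CD11b (up to 166), and Cd68 (up to 193). The 6 myotube markers summed to between 27104 and 29360 CPM in vehicle and between 20078 and 24321 CPM under PSB-KD107. Myh3 alone held a mean of 17784 CPM in vehicle and 13131 CPM under PSB-KD107, so this sum also says little about the others. Of the 6, 4 were lower at an unadjusted p under 0.05, Myog and Myh3 included, against 2.93% of all genes tested. Acta1 (log2 fold change 0.01, SE 0.31) and Ckm (0.33, SE 0.51) were not. Both were highest in PSB-KD107 library 4, at 8885 and 817 CPM. PSB-KD107 library 4 stood apart from the rest. In 507 genes (3.58% of those tested) it was at least 2 times as high as every other library, against 0.0212% to 1.19% for the other libraries, and Stc2 was among these 507 genes. Results for the members are therefore also given without it. Gpr18, the receptor that PSB-KD107 is made to activate, had 0 counts in each of the 6 libraries, which allows a level of up to 0.0596 to 0.0962 CPM. These limits cover counting error only.

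The promoters of 4 members were at hand in RefSeq (build GRCm38.p6, 250 bases before to 50 bases after each start), in 6 windows, and 2 of them are shown because they held the composite site that C/EBP and Atf factors bind together. Capitals mark the matches to the motifs searched, and both windows read 5′ to 3′ along the gene's strand.

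Fgf21 promoter, chr7:45615441-45615740, minus strand: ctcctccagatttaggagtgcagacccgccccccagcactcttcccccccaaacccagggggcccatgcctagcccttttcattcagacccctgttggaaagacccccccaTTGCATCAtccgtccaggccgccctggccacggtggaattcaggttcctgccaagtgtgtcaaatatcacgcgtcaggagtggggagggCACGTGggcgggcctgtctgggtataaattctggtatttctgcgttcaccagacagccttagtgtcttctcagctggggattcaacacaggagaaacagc

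Vldlr promoter, second start, chr19:27216770-27217069, plus strand: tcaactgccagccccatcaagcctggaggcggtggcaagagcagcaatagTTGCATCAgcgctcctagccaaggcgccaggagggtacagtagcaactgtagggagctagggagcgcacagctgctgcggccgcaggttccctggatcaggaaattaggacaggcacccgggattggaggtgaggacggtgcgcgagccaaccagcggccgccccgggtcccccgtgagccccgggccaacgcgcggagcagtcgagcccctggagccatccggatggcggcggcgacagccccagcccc

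The composite site was searched as TGATGNAA on both strands, and the same 8 letters, TTGCATCA, matched in both genes. The match began 139 bases upstream of the start in Fgf21 and 200 bases upstream in Vldlr. Of 32851 promoter windows in the table, 3.97% held this motif. By gene, 1219 of 27025 genes had it in a window (4.51%), and so did 9 of the 23 genes with a promoter entry (39.1%) of a list of ATF4 targets described further on, Asns, Chac1, Atf3 and Trib3 included. The Fgf21 window also held CACGTG, which matches ACGTG, the core bound by hypoxia-inducible factor (HIF), on both strands from 50 bases upstream. ACGTG was found in 19.6% of the windows. The second Gdf15 window (chr8:70632046-70632345, minus strand) carried the same CACGTG from 83 bases upstream. The first Gdf15 window (chr8:70632407-70632706) held AGGTCA, a half-site of nuclear receptors present in 16.3% of the windows, 55 bases upstream. The Stc2 window (chr11:31370012-31370311, minus strand) held neither these 3 motifs nor TGACGTCA, the cyclic AMP response element found in 1.79% of the windows. These matches describe letters in the windows only.

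Vldlr showed the steadiest level of the 5 genes under PSB-KD107. It spans chr19:27216484-27254231 on the plus strand of GRCm38, with 19 exon blocks and 10068 exon bases. Vehicle libraries 1, 2 and 4 held 12.1, 9.33 and 5.58 CPM (476, 326 and 180 counts), and the PSB-KD107 libraries held 40.4, 41.2 and 41.1 CPM (2035, 1284 and 1497 counts). The groups did not overlap, and the lowest treated library was over 3 times the highest vehicle library. The means were 9.02 ± 3.29 CPM in vehicle and 40.9 ± 0.426 CPM under PSB-KD107 (SD, n = 3), a log2 fold change of 2.18 (SE 0.29). The highest and lowest treated libraries differed by 1.02 times, whereas the vehicle libraries differed by 2.17 times. On the log2 scale the SD among treated libraries was 0.015 and stood at percentile 0.360 of all genes tested. Among vehicle libraries it was 0.57 and stood at percentile 83.7. An SD of 3 libraries is imprecise, and counts of this size carry counting error, so the closeness under PSB-KD107 is a description only. Without PSB-KD107 library 4 the log2 fold change was 2.18 again.

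Gdf15 split the treated libraries. This distant member of the TGF-beta superfamily lies at chr8:70629393-70632456 on the minus strand, with 3 exon blocks and 1852 exon bases. Its vehicle levels were 2.91, 5.81 and 6.82 CPM (114, 203 and 220 counts), and its levels under PSB-KD107 were 26.9, 27.5 and 6.57 CPM (1356, 857 and 239 counts). Libraries 1 and 2 of the treated group were thus 5.20 and 5.30 times the vehicle mean, and library 4 was 1.27 times that mean and inside the vehicle range. The means were 5.18 ± 2.03 CPM and 20.3 ± 11.9 CPM (SD, n = 3), with a log2 fold change of 1.97 (SE 0.61). Without PSB-KD107 library 4 the log2 fold change was 2.39.

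Stc2 was high in the very library where Gdf15 was low. The gene lies at chr11:31357307-31370074 on the minus strand, with 4 exon blocks and 5175 exon bases. Vehicle libraries had 12.1, 16.3 and 9.77 CPM (474, 569 and 315 counts), and treated libraries 17.2, 25.2 and 75.5 CPM (868, 787 and 2747 counts). The groups did not overlap, yet treated library 1 was above the highest vehicle library by less than the vehicle SD. Library 4 was 5.94 times the vehicle mean, against 1.36 and 1.98 times for libraries 1 and 2. The means were 12.7 ± 3.31 CPM and 39.3 ± 31.6 CPM (SD, n = 3), with a log2 fold change of 1.63 (SE 0.58), and this fell to 0.74 without PSB-KD107 library 4.

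Fgf21 differed least among the 4 genes with a higher mean under PSB-KD107. It lies at chr7:45613886-45615490 on the minus strand, with 3 exon blocks and 951 exon bases. Its levels were 12.7, 26.8 and 17.9 CPM in vehicle (499, 937 and 578 counts) and 24.6, 37.7 and 32.4 CPM under PSB-KD107 (1239, 1176 and 1180 counts). The groups overlapped, because vehicle library 2 exceeded treated library 1. The means were 19.2 ± 7.13 CPM and 31.6 ± 6.59 CPM (SD, n = 3), with a log2 fold change of 0.72 (SE 0.31), and without PSB-KD107 library 4 it was 0.70.

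Stc1, the paralogue of Stc2, had nearly equal means in the 2 groups. It lies at chr14:69029238-69041804 on the plus strand, with 4 exon blocks and 4197 exon bases. Of these, 229 bases overlap exons of the antisense gene Gm41192, and the strand setting of the counting is not given in the sources used here, so reads of that stretch cannot be told apart. Vehicle libraries held 3.93, 4.15 and 6.26 CPM (154, 145 and 202 counts), and treated libraries held 2.66, 1.54 and 10.1 CPM (134, 48 and 368 counts). Libraries 1 and 2 of the treated group lay below every vehicle library, and library 4 lay above every one. The means were 4.78 ± 1.29 CPM and 4.77 ± 4.66 CPM (SD, n = 3), and the fitted log2 fold change was close to 0 with an SE of 0.70. Without PSB-KD107 library 4 it was -1.18, so the near-equal means depended on this library. Without PSB-KD107 library 2 it was 0.41.

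**Figure D1:**
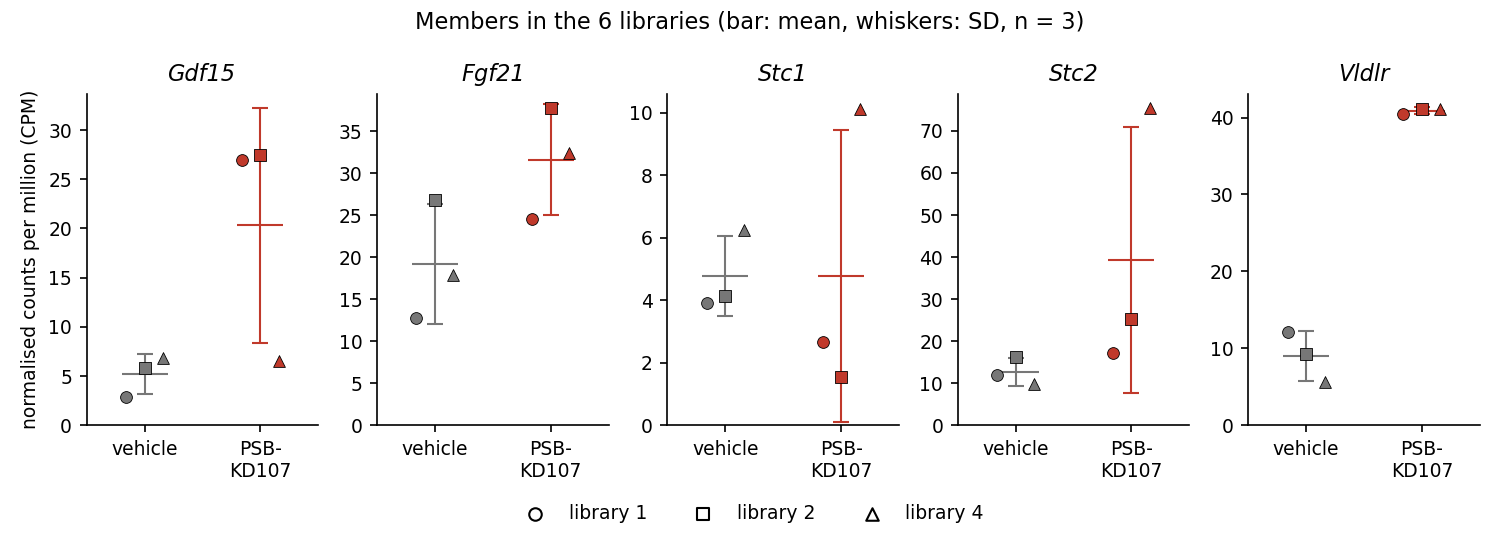
Normalised CPM (y axis, linear, from 0, one scale per gene) of the 5 members in the vehicle and PSB-KD107 libraries; circles, squares and triangles are libraries 1, 2 and 4, and bars and whiskers are means and SD (n = 3). Vldlr lies between 40.4 and 41.2 CPM in the 3 treated libraries, whereas library 4 departs from the other treated libraries in Gdf15 (6.57 CPM), Stc1 (10.1 CPM) and Stc2 (75.5 CPM).

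Spread within the treated group thus separated the members. The highest treated library exceeded the lowest by 6.57 times in Stc1, 4.38 times in Stc2, 4.18 times in Gdf15, 1.53 times in Fgf21 and 1.02 times in Vldlr. Among all genes tested, the treated SD on the log2 scale stood at percentile 95.1 for Stc1, 93.0 for Gdf15 and 91.9 for Stc2, and at 54.1 for Fgf21. In vehicle the same ratio lay between 1.60 (Stc1) and 2.35 (Gdf15). Summed over the 5 members, the level was 43.8, 62.4 and 46.4 CPM in vehicle and 112, 133 and 166 CPM under PSB-KD107. In treated library 4, Stc2 alone held 75.5 CPM of this sum. The members were chosen by this same contrast, so nothing is read from the gap between the sums. In bulk RNA, a change in the number of expressing cells and a change in RNA per cell cannot be told apart.

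With each library left out in turn, Vldlr stayed between 1.93 and 2.45, Fgf21 between 0.49 and 1.03 and Gdf15 between 1.68 and 2.39 on the log2 fold change scale. Stc2 ranged from 0.74 to 1.98. Stc1 ranged from -1.18 to 0.41 and changed sign.

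**Figure D2:**
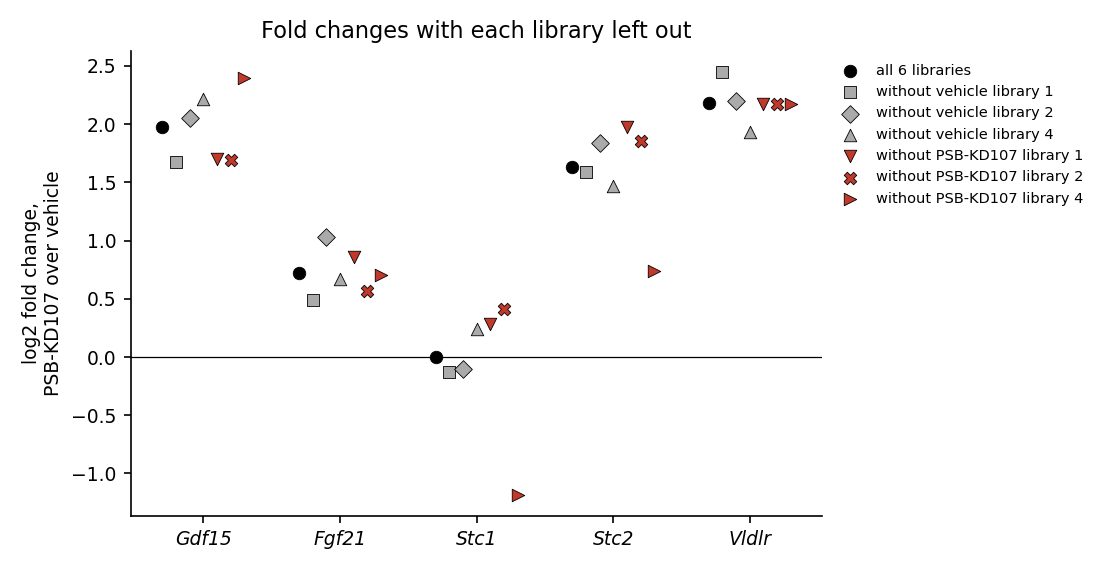
Log2 fold change of PSB-KD107 over vehicle (y axis) of each member with all 6 libraries (black circle) and with each library left out (grey, a vehicle library; red, a PSB-KD107 library). Leaving out PSB-KD107 library 4 gives the lowest values of Stc1 (-1.18) and Stc2 (0.74) and the highest value of Gdf15 (2.39), while Vldlr stays between 1.93 and 2.45.

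Across all genes, the quasi-likelihood test of edgeR called 0% of 14165 genes at an adjusted p under 0.05, with a smallest adjusted p of 0.0738. At an unadjusted p under 0.05 it had 6.47% of genes higher and 2.93% lower under PSB-KD107, 1331 genes in all. DESeq2, run on the same counts, called 410 genes, 2.26% of 13761 higher and 0.719% lower. On simulated counts of the same design, false calls made up a larger share of DESeq2's calls than of edgeR's. They also exceeded the share that DESeq2's threshold allows. Those counts were drawn with edgeR's own dispersion estimates, so the comparison may favour edgeR. The DESeq2 calls given for the gene lists below may thus be less certain than their adjusted p implies. The groups did not overlap in 2 members, Stc2 and Vldlr, both higher, against 9.19% of all genes higher and 6.59% lower. Since this contrast chose the members, nothing is read from this count.

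Compared per kilobase of exon, Fgf21 was the most abundant member in both groups. Its level was 20.1 ± 7.50 CPM per kb in vehicle and 33.2 ± 6.93 CPM per kb under PSB-KD107 (SD, n = 3), and its range lay clear of the next gene in each group. In vehicle, Gdf15 (2.80 ± 1.10) and Stc2 (2.46 ± 0.639 CPM per kb) followed with overlapping ranges. Stc1 (1.14 ± 0.307) and Vldlr (0.896 ± 0.327 CPM per kb) came last and also overlapped. Under PSB-KD107 the order was Gdf15 at 11.0 ± 6.43, Stc2 at 7.60 ± 6.10 and Vldlr at 4.06 ± 0.0423 CPM per kb, each overlapping the next, and then Stc1 at 1.14 ± 1.11 CPM per kb, below the range of Vldlr. Vldlr and Stc1 had therefore traded places. The 2 stanniocalcins also moved apart. Stc2 had 3.08, 3.92 and 1.56 counts per count of Stc1 in vehicle, and 6.48, 16.4 and 7.46 under PSB-KD107, although both genes were highest in treated library 4.

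**Figure D3:**
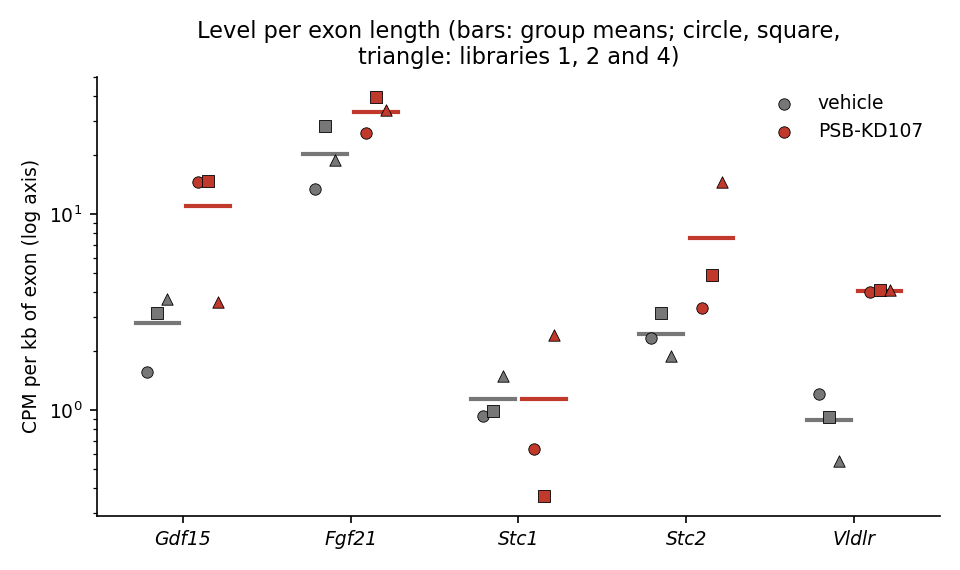
CPM per kilobase of exon (y axis, log scale) of the 5 members; points are libraries (circle, square and triangle for 1, 2 and 4), grey for vehicle and red for PSB-KD107, and bars are group means. Fgf21 is highest in both groups (means 20.1 and 33.2), and Vldlr goes from the lowest mean in vehicle (0.896) to above Stc1 under PSB-KD107 (4.06 against 1.14).

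Upstream of the members, Atf4 mRNA followed an order across treated libraries that was close to that of Gdf15. It held 218, 241 and 254 CPM in vehicle and 451, 427 and 276 CPM under PSB-KD107, so library 4 was nearest to vehicle (log2 fold change 0.69, SE 0.20, unadjusted p = 0.0128). Of 11 regulators of eIF2 and Atf4, 1 was higher (Atf4) and 1 lower at an unadjusted p under 0.05, and DESeq2 called none. The shares over all genes tested were 6.47% and 2.93%, so for so short a list these counts are near the background. The lower one was Eif2ak1, the heme-regulated eIF2 kinase, with a log2 fold change of -0.37 (SE 0.14). Eif2ak2, the kinase activated by double-stranded RNA, stood at 153 CPM in PSB-KD107 library 4 and at 11.3 to 15.6 CPM in the other 5 libraries.

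Other targets of Atf4 were higher as a group. In a list of 29 such genes that excludes the 5 members, 23 passed an unadjusted p of 0.05 upwards and 0 downwards, against 6.47% and 2.93% of all genes, and DESeq2 called 18 higher at an adjusted p under 0.05. The list was written with earlier results of these data known, so it is no independent evidence of its direction. The median log2 fold change of the list was 1.00, whereas that over all genes tested was close to 0. Without PSB-KD107 library 4, 26 of the 29 passed an unadjusted p of 0.05 upwards, against 6.92% of all genes tested. Trib3, a pseudokinase induced by Atf4 and Chop, went from 4.44, 2.49 and 2.57 CPM to 56.3, 36.6 and 34.8 CPM (log2 fold change 3.75, SE 0.34). Ddit3, which encodes Chop, went from 9.05, 12.0 and 11.3 CPM to 81.0, 47.5 and 47.6 CPM (2.44, SE 0.26). Atf5, a transcription factor of the same family as Atf4, went from a mean of 61.1 ± 9.42 CPM to 170, 201 and 190 CPM (SD, n = 3; log2 fold change 1.61, SE 0.14). All 3 were called by DESeq2. Atf3, a repressor induced by stress, had 12.9, 15.8 and 14.2 CPM in vehicle and 50.9, 28.0 and 18.5 CPM under PSB-KD107 (1.19, SE 0.37) and was not called by DESeq2.

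Treated library 4 was thus not low in the Atf4 list as a whole. The list's median log2 difference from the vehicle mean was 1.13, 0.95 and 0.88 in treated libraries 1, 2 and 4, while Gdf15 in library 4 was at the vehicle level. Trib3 and Ddit3 in library 4 were close to library 2. In Atf3 and in Chac1, a glutathione-degrading enzyme with 36.5, 30.3 and 16.8 CPM under PSB-KD107, library 4 was the lowest treated library, as in Gdf15, but stood above the vehicle libraries.

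**Figure D4:**
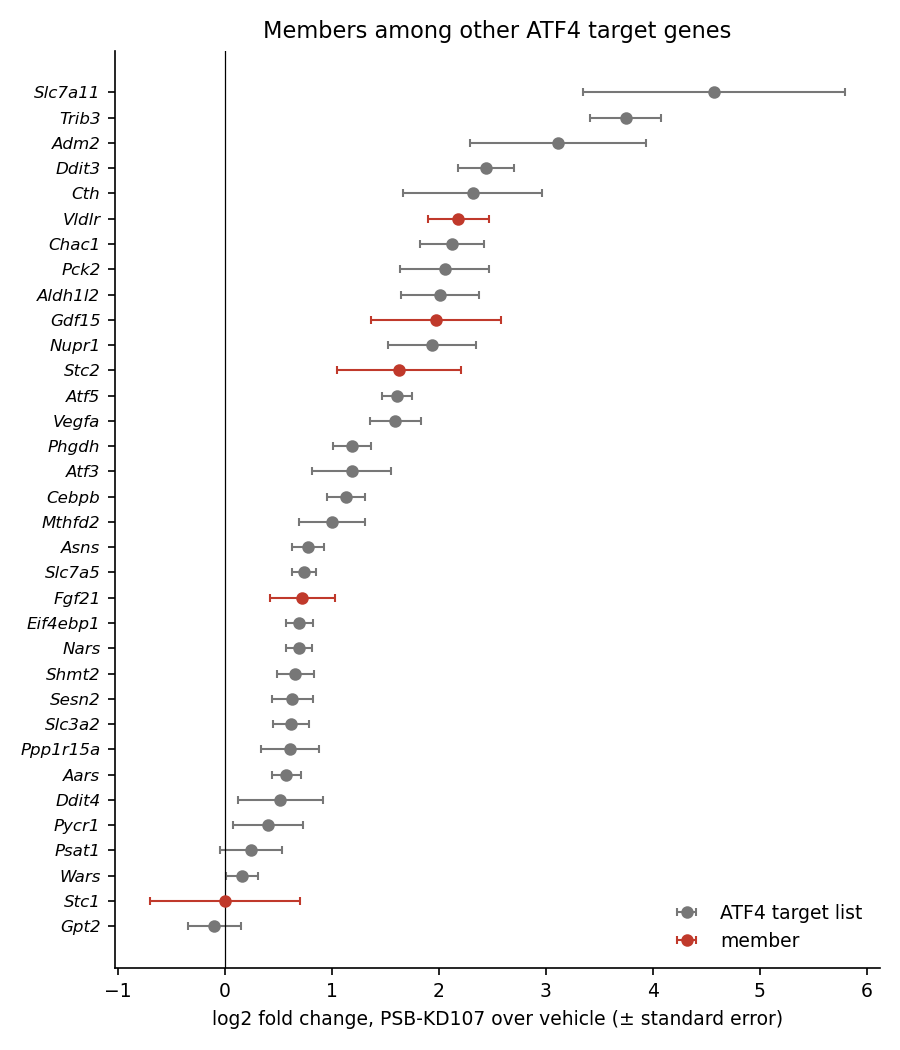
Log2 fold change of PSB-KD107 over vehicle (x axis, ± standard error) of the 29 genes of the ATF4 target list (grey) and the 5 members (red), in order of size. Vldlr (2.18), Gdf15 (1.97) and Stc2 (1.63) lie in the upper part of the range, Fgf21 (0.72) in its lower part, and Stc1 next to 0, with wider errors for Stc1, Stc2 and Gdf15 than for Vldlr.

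Genes of other stress routes that are known to reach the members were compared in the same way. HIF targets, to which Stc2 and Vldlr are also counted, differed widely among the treated libraries. Of 15 genes, 5 were higher at an unadjusted p under 0.05, against 6.47% of all genes tested. DESeq2 called 4 of them higher, against 2.26% of genes. Their median log2 fold change was 1.59 and fell to 0.48 without PSB-KD107 library 4. The list's median log2 difference from the vehicle mean was 1.33, 0.16 and 2.07 in treated libraries 1, 2 and 4, and 0.62, -0.22 and -0.49 in the vehicle libraries. Library 4 thus had the highest HIF list, the highest Stc1 and the highest Stc2, and their part in one another was not tested. Vldlr did not follow that order, with 41.2 CPM in library 2 and 41.1 CPM in library 4. The 3 genes with the smallest p were Vegfa, an angiogenic growth factor that is also on the ATF4 list (log2 fold change 1.59, SE 0.24), Ndrg1 (2.26, SE 0.45) and Ero1l, an oxidase of the endoplasmic reticulum (2.75, SE 0.77).

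Targets of p53, among which Gdf15 is known, gave no call. None of 10 passed an unadjusted p of 0.05, and DESeq2 called none. Over all genes tested, 6.47% were higher and 2.93% lower at that p, so for so short a list this is near the background. The list's median log2 fold change was 0.06, and the treated libraries stood at 0.05, 0.34 and -0.30. Phlda3 (0.25, SE 0.11), Sesn1 (0.29, SE 0.14) and Cdkn1a, the cell cycle inhibitor p21 (-0.12, SE 0.19), had the smallest p. PPAR targets, to which Fgf21 belongs in liver, had 6 of 11 genes past an unadjusted p of 0.05, all higher, against 6.47% of all genes tested. DESeq2 called 3 higher, against 2.26% of genes. Their median log2 fold change was 0.91, and 0.60 without PSB-KD107 library 4. Plin2, a lipid droplet coat protein, led them (1.48, SE 0.24), before Cpt1b, the muscle carnitine palmitoyltransferase (1.68, SE 0.28), and Pdk4, a pyruvate dehydrogenase kinase (0.78, SE 0.17). Targets of the Atf6 and Ire1 arms of the unfolded protein response had 4 of 11 genes higher and 0 lower at an unadjusted p under 0.05. Over all genes tested the shares were 6.47% and 2.93%. DESeq2 called 1, Herpud1, a factor of protein degradation at the endoplasmic reticulum (0.61, SE 0.10). The chaperones Hspa5 (0.48, SE 0.14) and Hsp90b1 (0.34, SE 0.12) followed. The treated medians of this list were 0.58, 0.18 and 0.30.

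**Figure D5:**
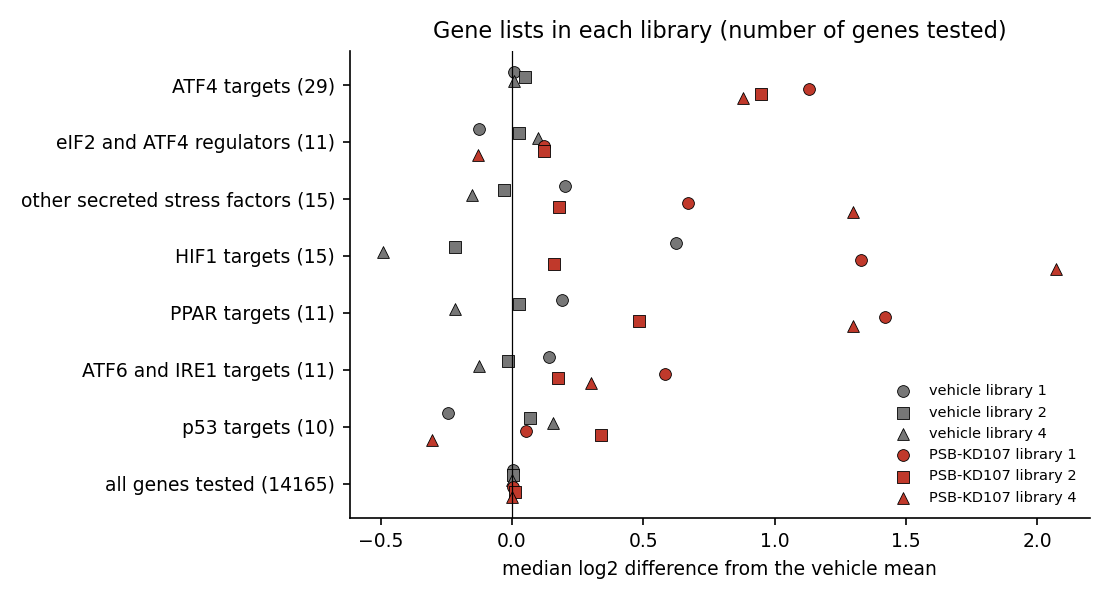
Median log2 difference from the vehicle mean (x axis) of 7 gene lists and of all genes tested (number of genes in parentheses) in each library; grey, vehicle; red, PSB-KD107; circles, squares and triangles are libraries 1, 2 and 4. The 3 treated libraries lie together for the ATF4 targets (0.88 to 1.13) and far apart for the HIF1 targets (0.16 to 2.07), where library 4 is highest.

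Receptors and partners of the members were measured as well, 22 genes of which 17 passed the filter. With all 6 libraries, only Mylip, the ligase that marks Vldlr for degradation, passed an unadjusted p of 0.05 (log2 fold change -0.50, SE 0.20). DESeq2 called none. Over all genes tested, 6.47% were higher and 2.93% lower at that p, so 1 of 17 is near the background. For Gdf15, the receptor Gfral had 0 counts in every library, and its co-receptor Ret did not exceed 0.286 CPM. For Fgf21, the co-receptors Klb and Kl stayed at or under 0.0641 and 0.330 CPM. Fgfr1, a receptor that pairs with Klb, ranged from 146 to 209 CPM over both groups, and Fgfr4 had 92.5, 124 and 149 CPM in vehicle and 55.9, 105 and 28.9 CPM under PSB-KD107. Fgfr2 and Fgfr3 did not exceed 2.55 and 9.59 CPM. Fap, a protease that cleaves Fgf21, did not exceed 3.39 CPM.

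For the stanniocalcins, their target proteases Pappa and Pappa2 reached at most 3.47 and 24.8 CPM. Igfbp5, a pappalysin substrate, was abundant at 941, 1109 and 1412 CPM in vehicle and 1071, 814 and 1951 CPM under PSB-KD107, while Igfbp4 did not exceed 7.55 CPM. Treated library 4, with the most Stc1 and Stc2, also had the most Igfbp5 and the least Pappa (0.412 CPM) and Pappa2 (8.08 CPM).

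For Vldlr, the ligands Reln, Apoe and Lpl ranged from 6.56 to 15.9, from 3.21 to 26.3 and from 11.3 to 77.0 CPM without a group difference past the test. The adaptor Dab1 had 0 counts in every library, Dab2 ranged from 15.5 to 27.5 CPM and the chaperone Lrpap1 from 122 to 157 CPM. Furin, a proprotein convertase, ranged from 111 to 199 CPM.

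Of the lipoprotein receptors related to Vldlr, Lrp8, the second reelin receptor, had 14.8, 6.56 and 5.46 CPM in vehicle and 60.8, 28.1 and 10.5 CPM under PSB-KD107 (log2 fold change 1.89, SE 0.70), with overlapping groups. Its treated libraries spread over 5 times where those of Vldlr did not. DESeq2 did not call Lrp8 or Lrp10, whose log2 fold change was 0.52 (SE 0.31).

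No other ligand of the families of Gdf15 and Fgf21 was called. Of 19 other Fgf and TGF-beta superfamily ligands that passed the filter (31 were listed), 0 passed an unadjusted p of 0.05 in edgeR or were called by DESeq2. Over all genes tested, 6.47% were higher and 2.93% lower at that p, so 0 of 19 is not far from the background. Their median log2 fold change was -0.19. Fgf9 (-0.46, SE 0.23), Gdf6 (-0.70, SE 0.37) and the activin subunit gene Inhba (0.81, SE 0.43) had the smallest p. Among 15 other secreted factors of stressed cells, 5 passed an unadjusted p of 0.05 upwards and 1 downwards, against 6.47% and 2.93% of all genes tested. DESeq2 called 3 higher and 1 lower. The lower gene was Igfbp3, a carrier of insulin-like growth factors, with 279, 304 and 289 CPM in vehicle and 178, 183 and 156 CPM under PSB-KD107 (-0.75, SE 0.10). Vegfa and Nampt, an enzyme of NAD synthesis that is also secreted (1.71, SE 0.42), were higher, and both were highest in PSB-KD107 library 4, at 210 and 183 CPM. The treated medians of this list were 0.67, 0.18 and 1.30.

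The genes whose log2 CPM followed each member most closely over the 6 libraries differed from member to member. These Pearson correlations share the treatment contrast and the same 6 libraries and are a description only. Vldlr was most like Phgdh, the first enzyme of serine synthesis and a gene of the ATF4 list (r = 0.994), Syngr1 (0.991) and Hexa, a lysosomal hexosaminidase subunit (0.990). Gdf15 was most like Nploc4 (0.998), Gtf2h1 (0.997) and Ankrd12 (0.994), which had nearly the same order of libraries but small differences, with log2 fold changes of 0.12, 0.31 and 0.49. Stc2 was most like Ppfia3 (0.999), Slc37a4 (0.998) and Oxsr1 (0.996), all highest in treated library 4. Fgf21 was most like Dyx1c1 (0.987), Tmem70 (0.986) and Mief1 (0.986), and Stc1 was most like Gpbp1 (0.981), Fam107a (0.980) and Zhx2 (0.978). Between 22 (Stc1) and 108 (Vldlr) genes had an r over 0.95 with a member.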

How the data were processed

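Poly(A) RNA of 6 libraries was read on an Illumina NovaSeq as paired ends after a directional library preparation. Per the study's methods, the authors used STAR for alignment to mm10, the build that the submitters' processing notes also name, and the deposited table holds raw counts per gene; the counting program and its strand setting are not given in the sources used here. Libraries 1 and 2 of each group match a sample label, and the libraries numbered 4 match only their group.

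From these counts, TMM factors, CPM and log2 fold changes were computed with edgeR 4.0.16 in R 4.3.3 (filterByExpr, glmQLFit, glmQLFTest, no block). DESeq2 1.42.0 and limma-voom (limma 3.58.1) were alternatives, adjusted p-values are Benjamini-Hochberg values over all genes tested, with a threshold of 0.05. Unadjusted p-values are from edgeR. Correlations used log2 CPM with a prior count of 2. Exon lengths and positions came from GENCODE M21 (GRCm38), and promoters from RefSeq. The fits were tested on simulated counts with known changes, drawn with edgeR's dispersion estimates. DESeq2 was run there on the filtered genes, and in the main run on all genes with a count. There edgeR and limma-voom made few false calls but recovered fewer of the known changes than DESeq2. DESeq2 made more false calls than its threshold allows.

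The 5 members and all gene lists were chosen with earlier results of these data known. The text names the members, Atf4, Ddit3, Trib3, Atf3, Gpr18, all receptors and partners, the 3 genes with the smallest p of each other list, and the 3 genes most like each member. Some genes that this rule names are not reported here. Asns, Chac1 and the marker genes, which fall outside this rule, were named after their values were seen. Alternatives were other size factors, filters, tools, the replicate block and each library left out. P-values set the difference between the groups against the spread between these libraries, which may be partly technical.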

Additional observations from a re-analysis of the deposited data

How the results depend on the processing

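Vldlr, Gdf15, Fgf21 and Stc2 had a positive log2 fold change in all 18 settings run, with ranges of 1.93 to 2.45, 1.68 to 2.70, 0.49 to 1.03 and 0.57 to 1.98. Stc1 was negative in 14 and positive in 4 of 18, from -1.18 to 0.41. With each library left out, the ranges were 1.93 to 2.45 for Vldlr, 1.68 to 2.39 for Gdf15, 0.49 to 1.03 for Fgf21, 0.74 to 1.98 for Stc2 and -1.18 to 0.41 for Stc1. With the 4 libraries numbered 1 and 2 only, Stc2 stood at 0.57 with the replicate block and 0.58 without it (the latter was added after the data were seen), since library 4 was left out.

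Whether the numbers pair the libraries throughout was not settled. Deviations from the group means correlated at 0.63, 0.50 and -0.13 for numbers 1, 2 and 4. The libraries numbered 4 did not correlate best with each other. Unlike numbers gave correlations from -0.70 to 0.64. PSB-KD107 library 4 stood apart in many genes, and deviations within a group depend on one another. This check therefore cannot exclude a shared mouse for number 4. The replicate block gave 2582 genes at an adjusted p under 0.05 in edgeR with the 4 libraries numbered 1 and 2, against 0 without the block, and 0 with all 6 libraries. With DESeq2 and all 6 libraries the block gave 638 genes against 410.

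Without a filter on low counts edgeR called 8 genes, and DESeq2 called 410 where edgeR called 0. On simulated counts of this design edgeR recovered fewer of the known changes than DESeq2, so its 0 calls do not show that no gene differed. DESeq2 made more false calls there than its threshold allows and edgeR did not, so some of the 410 may be false calls. How many was not tested, nor was the cause of the 8 calls. Leaving out each library gave 0 to 0 genes in edgeR and 160 to 768 in DESeq2, the lowest without vehicle library 4, and 177 without vehicle library 2, 674 without PSB-KD107 library 4 and 768 without PSB-KD107 library 2. The number of ATF4 targets higher at an unadjusted p under 0.05 stayed between 21 and 26 of 29 with a library left out and was 27 under the replicate block of 4 libraries. The HIF1 list had a median of 0.48 without PSB-KD107 library 4 and 0.26 in the 4 libraries numbered 1 and 2 with no block. Precision is limited by 3 libraries per group, and Klb, Kl and Ret lie close to the depth limit of 3 counts.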

Other observations

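Gdf15 belonged to a small set when genes were picked by its pattern, a choice made after its values were seen. In 102 genes, PSB-KD107 libraries 1 and 2 were each at least 2 times as high as every vehicle library. In 13 of them (12.7%) library 4 was nevertheless at or below the highest vehicle library. Besides Gdf15 these were the acute-phase gene Saa3, the chemokine gene Cxcl1, the lysosomal gene Cd68 and Gas6, a ligand of Tam receptors, with Kif1a, Lrrc27, Susd3, Uap1l1, Tmem144, Rab39b, Nov and Atp13a4. The same share was not worked out for another treated library, so it is a description only.

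Pax7, the transcription factor of muscle stem cells, was the 1 myoblast marker of 8 with a lower level at an unadjusted p under 0.05, at 68.7, 49.8 and 60.0 CPM in vehicle and 34.0, 26.7 and 35.1 CPM under PSB-KD107 (log2 fold change -0.90, SE 0.17, called by DESeq2). In Pax7, treated library 4 lay with the other treated libraries. Of all genes tested, 2.93% were lower at that p, and Pax7 was picked out after its values were seen. Myf5 (0.73, SE 0.92) and Des (0.15, SE 0.18) had positive log2 fold changes. Myod1 (-0.59, SE 0.35), Cdh15 (-0.42, SE 0.40), Itga7 (-0.11, SE 0.15), Vcam1 (-0.06, SE 0.31) and Sdc4 (-0.02, SE 0.22) had negative ones. The list as a whole therefore had no shared direction.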
